A study of Bos taurus and Sus scrofa with 6 samples.

Results

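Chemokines and chemokine receptors were followed through the single cells of prepubertal cattle and pig testes. The members were all genes whose symbol consists of CCL, CXCL, XCL, CX3CL, CCR, CXCR, XCR or CX3CR followed by digits alone, so the atypical receptors (ACKR) were not among them. The cattle gene table held 49 members of 19994 genes and the pig gene table held 44 members of 22694 genes. The symbols of 42 members occurred in both tables, 7 in the cattle table alone and 2 in the pig table alone. By role, 31 cattle members and 28 pig members were ligands, and 18 and 16 were receptors.

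Chemokines are small secreted proteins that direct the migration of leukocytes, and they act through receptors coupled to G proteins on the surface of the responding cell. They are classed by the first conserved cysteines of the mature protein, which stand next to each other in the CC family and are separated by a single residue in the CXC family. In the testis, resident macrophages lie in the interstitium beside Leydig cells and blood vessels, and stromal and vascular cells can also make chemokines that position leukocytes. CXCL12, a ligand of CXCR4, is further known for guiding germ cells.

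Total testicular cells, obtained at castration, came from 4.5-month-old Holstein cattle and 3-month-old pigs of mixed breed, with 3 untreated libraries of each species. Cells were captured on the 10x Genomics platform with v2 chemistry, which counts unique molecular identifiers (UMIs, single captured RNA molecules) near the 3′ end of transcripts. By the methods each library was a different male, and the libraries are called cattle 1 to 3 and pig 1 to 3 here. Species, breed and age moved together, and their effects cannot be told apart. The cells kept numbered 3444, 8138 and 5900 in the cattle libraries and 3162, 3808 and 2236 in the pig libraries. Cattle 1 and pig 1 were shallow, with medians of 789 and 890 UMIs per cell, against 1684.5 and 4461 in the other cattle libraries and 3856 and 5870 in the other pig libraries. Any pair of libraries shared 9 to 61 cell barcodes.

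Cells were clustered without the members and without mitochondrial genes, and clusters were named from markers that hold no member. The naming rule also looked at the 10 leading genes of each cluster, and members could be among those. The markers stood highest in their own class for 9 of 9 macrophage-like, 12 of 12 lymphocyte-like and 7 of 8 endothelial-like markers in cattle, and for 8 of 9, 10 of 12 and 9 of 9 in pig. The same markers gave the names, so these counts describe the naming and are no separate check of it. In cattle endothelial-like cells VWF and FLT1 barely led, at 14.11 and 8.73 CPM against 14.08 and 7.31 CPM in germ-like cells. CLDN5 led clearly there, at 1290 CPM against 33.25 CPM in Sertoli-like cells. The names were weak for cattle stromal-like cells, where 2 of 8 markers were highest in the class, for pig dendritic-like cells with 3 of 6 and for pig B cell-like cells with 2 of 6. The other cattle stromal markers, such as PDGFRA and LUM, averaged highest in myoid-like cells. Pig dendritic-like clusters carried VPREB1, IRF8, PLAC8 and XCL1 among their leading genes. In pig 1 only 3 endothelial-like cells were found, so pig endothelial values came from pigs 2 and 3. Levels are given as CPM, the usual count of a gene's UMIs scaled to the same large total of all UMIs in the cells of 1 class and library, and means carry the SD over libraries. Genes differ in how much of their 3′ end is captured, so levels are set side by side within a gene and not between genes. Cattle and pig reads were counted on separate gene tables, and the part of that in low or absent counts of 1 species was not tested. The Sertoli marker INHBB, for one, averaged 0 CPM in cattle Sertoli-like cells and 53.1 CPM in pig ones.

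The cysteine spacing that names the families was read from the pig coding sequences, placed on the Sscrofa11.1 build with the RefSeq annotation. Past a fixed number of leading codons, the first pair of cysteine codons with at most 3 codons between was taken. It was adjacent in 17 of 17 CC ligands and separated by 1 codon in 9 of 9 CXC ligands. In XCL1 the first cysteine codon past that point had no second one as close, and CX3CL1 had 3 codons between. Where the mature part starts was not mapped. The stretches around these codons are shown for the pig ligands that the results below turn on, in coding direction, with the cysteine codons in capitals.
CCL2: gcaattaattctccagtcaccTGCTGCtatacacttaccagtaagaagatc
CCL5: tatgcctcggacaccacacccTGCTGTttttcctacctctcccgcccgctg
CCL11: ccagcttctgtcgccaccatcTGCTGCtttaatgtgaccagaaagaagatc
CCL21: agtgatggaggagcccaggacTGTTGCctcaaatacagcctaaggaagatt
CCL22: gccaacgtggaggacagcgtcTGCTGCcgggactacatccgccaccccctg
CXCL2: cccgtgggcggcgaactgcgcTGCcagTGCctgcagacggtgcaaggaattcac
CXCL10: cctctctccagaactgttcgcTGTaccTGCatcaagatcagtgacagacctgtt
CXCL12: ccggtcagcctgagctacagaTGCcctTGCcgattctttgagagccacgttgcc
CXCL13: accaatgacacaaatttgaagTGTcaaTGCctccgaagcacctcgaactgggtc
XCL1: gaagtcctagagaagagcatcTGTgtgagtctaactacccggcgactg

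These exonic stretches lie at chr12:40799055-40799105 on the minus strand for CCL2, at chr10:32093986-32094036 on the plus strand for CCL21, at chr6:19298149-19298199 on the plus strand for CCL22 and at chr4:82433953-82434000 on the minus strand for XCL1. The CXC stretches lie at chr8:70157494-70157547 on the plus strand for CXCL2, at chr8:71695250-71695303 on the minus strand for CXCL10, at chr14:91520784-91520837 on the plus strand for CXCL12 and at chr8:73072972-73073025 on the plus strand for CXCL13. The CCL5 stretch, chr12:39652865-39654281 on the plus strand, and the CCL11 stretch, chr12:40780505-40782653 on the minus strand, each run across an intron. All 44 pig members were placed, on 14 chromosomes. Members of like role neighboured each other in several places, with CCL22, CX3CL1 and CCL17 next to each other on chromosome 6, and CXCR6, XCR1, CCR1, CCR3 and CCR2 on chromosome 13. CCL14, CCL16 and CCL5 on chromosome 12, CXCL10 and CXCL11 on chromosome 8, and CCL21 and CCL19 on chromosome 10 were direct neighbours as well. Of the pig members, 7 overlapped another protein-coding gene, among them CXCL10 and CXCL11, which overlap ART3 on the opposite strand, and XCR1, which overlaps CCR1 on the same strand.

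In all cells kept, cattle members gave 54240 UMIs and pig members gave 92790. Ligands held 52150 of the cattle UMIs and 89883 of the pig UMIs, and receptors held 2090 and 2907. Of the 49 cattle members, 42 had at least 1 UMI and 26 had at least 50, and of the 44 pig members all 44 had at least 1 and 29 had at least 50. The cattle members without any UMI were CCL20, CXCL13, CXCL17, CCR2, CCR3, CCR6 and CXCR5. One gene and one animal dominated the pig total, since CXCL13 held 56.8% of it and pig 3 held 99.8% of the CXCL13 UMIs. Summed without CXCL13, ligand levels in cattle averaged 16930 ± 9111 CPM in endothelial-like, 7496 ± 1603 CPM in lymphocyte-like and 4662 ± 762 CPM in macrophage-like cells (SD, n = 3). A single gene made up most of the first and the second of these sums, with CCL21 at a mean of 16290 CPM in endothelial-like and CCL5 at 7192 CPM in lymphocyte-like cells. The sums averaged 131 ± 13.7 CPM in cattle germ-like and 133 ± 53.1 CPM in cattle Sertoli-like cells (SD, n = 3). In pig the same sum averaged 4197 ± 1304 CPM in macrophage-like cells (SD, n = 3), 3521 ± 591 CPM in endothelial-like cells (SD, n = 2), and 2558 ± 1282 CPM in lymphocyte-like and 2231 ± 706 CPM in stromal-like cells (SD, n = 3), against 163 ± 38.7 CPM in germ-like cells (SD, n = 3). The macrophage-like and endothelial-like sums stood above the Sertoli-like and germ-like sums in each library with a value, pig 1 having none for endothelial-like cells.

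**Figure D1:**
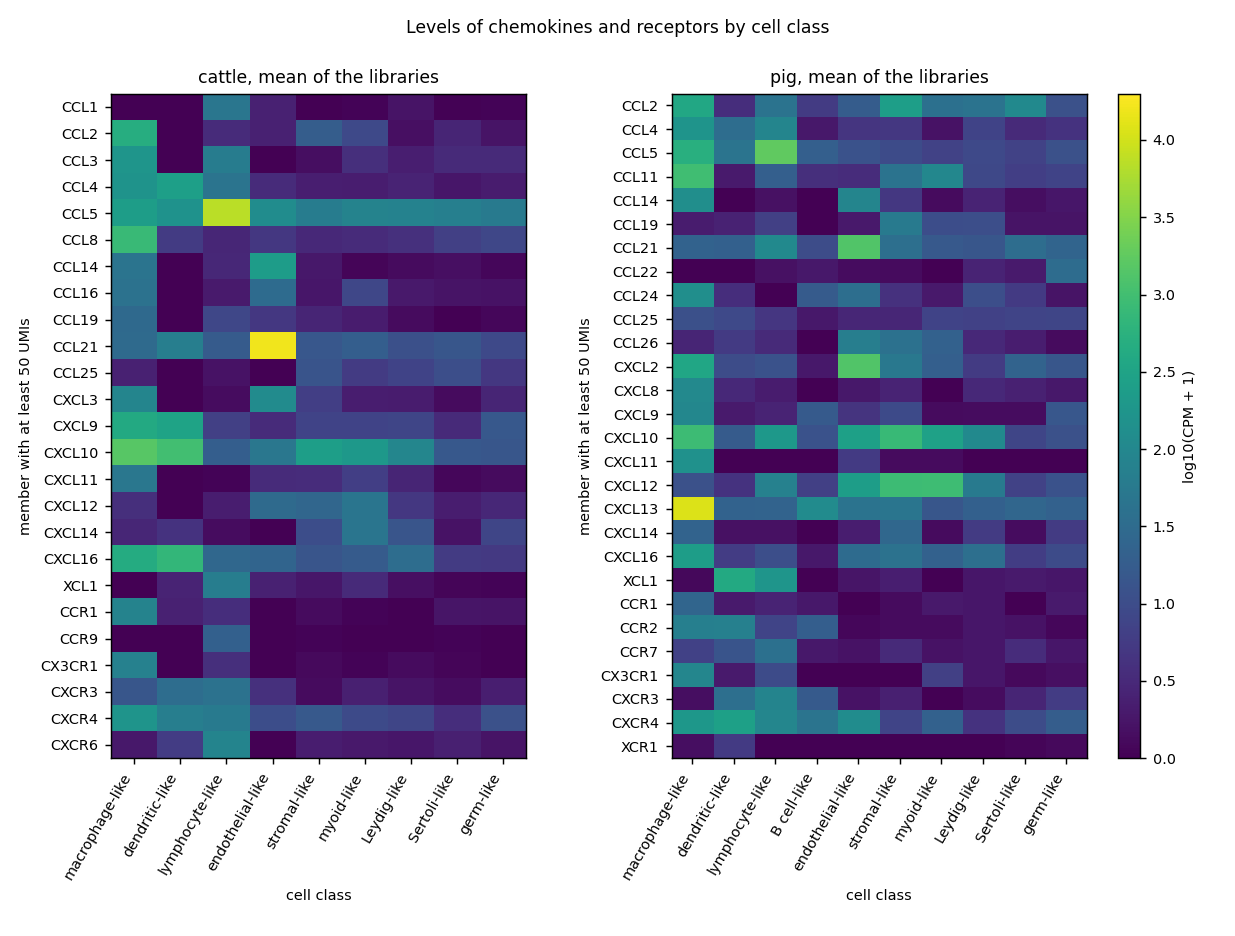
Mean level over the libraries of the members with at least 50 UMIs (rows) in each cell class (columns), as log10(CPM + 1) by colour, for cattle on the left and pig on the right. The brightest cells are CCL21 in cattle endothelial-like cells, CCL5 in cattle lymphocyte-like cells and CXCL13 in pig macrophage-like cells, while the Sertoli-like and germ-like columns are dark for most members.

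Each class was compared with all other cells of the same libraries, in UMIs summed per library. The quasi-likelihood test of edgeR was used, and p-values were adjusted by the Benjamini-Hochberg method over all genes tested (14200 in cattle and 15217 in pig, 15009 for pig endothelial-like cells). Of the members, 35 were tested in cattle and 40 in pig, and the others fell under the minimum of 10 UMIs over the sums. A member is written below as higher or lower in a class where its adjusted p was below 0.05. The test measures the spread between these libraries, 3 a class and 2 for pig endothelial-like cells, and draws it in part from other genes. The main fit does not use the pairing of the 2 sums of each animal.

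Among the classes tested, macrophage-like cells had the most members called higher in each species, while dendritic-like cells were not tested. In cattle, 20 of the 35 members tested were higher in these cells and 3 were lower, where 6.62% of all genes tested were higher and 7.42% lower, and the members had a median log2 fold change of 4.07 against -0.69 for all genes. In pig, 18 of 40 were higher and 2 were lower, where 6.04% of all genes were higher and 3.67% lower, and the medians were 1.46 and -0.62. The pig class depended on the clustering. It held 70, 67 and 247 cells in pigs 1 to 3, but 0, 5 and 180 at clustering resolution 2. The pig result could therefore not be recomputed at that resolution. The median over all genes moved with the fit in the cattle comparison. It was -0.69 in edgeR with TMM, -0.71 in edgeR with library size alone and -0.05 with DESeq2. The member median was 4.27 with DESeq2. None of the member calls reported here changed sign with DESeq2.

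The ligands of CXCR3, which recruit activated T cells and are induced by interferon, were among them. CXCL10 stood at 1138, 2020 and 1417 CPM in the macrophage-like cells of cattle 1 to 3 and at 1182, 677 and 837 CPM in those of pigs 1 to 3. The next class was dendritic-like in cattle, with 726, 1122 and 1091 CPM, and stromal-like in pig, where its level overlapped the macrophage-like one. In cattle lymphocyte-like, Sertoli-like and germ-like cells no library was above 21.7 CPM. The log2 fold change was 3.81 ± 0.39 in cattle (SE, adjusted p = 5.57e-05) and 3.67 ± 0.80 in pig (SE, adjusted p = 0.00968). Macrophage-like cells held only 20.2% of the 7647 cattle CXCL10 UMIs, and CXCL10 was also called higher in cattle myoid-like cells. CXCL9 stood at 243, 532 and 464 CPM in cattle and at 119.7, 146 and 30 CPM in pig macrophage-like cells. CXCL11 stood at 18.7, 61.1 and 72.0 CPM in cattle and at 44.9, 397 and 8.18 CPM in pig. The pig CXCL11 value thus rested on pig 2, and in pig 11 of 384 macrophage-like cells held all 110 of the class's UMIs. Without pig 2 the log2 fold change of CXCL11 was 4.64 and no longer passed (adjusted p = 0.0705).

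CC ligands of monocytes and other leukocytes made the second group. CCL2, which attracts monocytes, stood at 504, 358 and 574 CPM in cattle macrophage-like cells and at 509, 201 and 426 CPM in pig ones. Outside this class pig CCL2 also stood at 233, 317 and 206 CPM in stromal-like and at 40.5, 124 and 163 CPM in Sertoli-like cells. The stromal-like value of pig 1 came from 10 cells with 8576 UMIs of all genes. Cattle Sertoli-like cells averaged 1.83 ± 1.07 CPM (SD, n = 3), a difference between species that was not tested, and the stromal-like contrast was not called different between species (pig minus cattle 1.82 ± 0.67 on the log2 scale, SE, adjusted p = 0.228). CCL8, a related monocyte attractant, stood at 597, 833 and 1070 CPM in cattle macrophage-like cells with a log2 fold change of 7.82 ± 0.50 (SE, adjusted p = 2.42e-06). The pig gene table holds no member of that symbol. CCL11, the eosinophil attractant eotaxin, stood at 1615, 886 and 338 CPM in pig macrophage-like cells, with a log2 fold change of 6.58 ± 0.60 (SE, adjusted p = 1.71e-05), and gave 2 UMIs in all cattle cells kept. CCL4 and CCL3, the macrophage inflammatory proteins, stood at 112.0, 192 and 172 CPM and at 112.0, 309.8 and 101 CPM in cattle macrophage-like cells. Cattle CCL4 averaged more in dendritic-like cells, at 262 ± 80.3 CPM against 159 ± 41.6 CPM in macrophage-like cells (SD, n = 3). CCL4 stood at 165, 117 and 228 CPM in pig macrophage-like cells.

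CXCL8, the neutrophil attractant interleukin 8, gave 20 UMIs in cattle, which all lay in macrophage-like cells (adjusted p = 7.72e-05). Set against a floor of 3 counts over all other cells of the classes, it was at least 345-fold higher there. In pig it stood at 74.8, 96.2 and 143 CPM there, with a log2 fold change of 6.68 ± 0.65 (SE, adjusted p = 2.63e-05). CXCL16, a membrane-bound ligand, stood at 317, 563 and 448 CPM in cattle and at 359, 280.1 and 115 CPM in pig macrophage-like cells, and at 704 ± 98.8 CPM (SD, n = 3) in cattle dendritic-like cells. Some cattle calls rested on very few molecules. CCL22 was called higher in macrophage-like cells (log2 6.51 ± 1.93, SE, adjusted p = 0.0442) from 6 UMIs of cattle 1, and CCL17 (log2 6.35 ± 1.34, SE, adjusted p = 0.00868) had 13 UMIs in all cells kept. With robust shrinkage of the spread CCL22 no longer passed (adjusted p = 0.113).

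CXCL13, which draws B cells through CXCR5, set pig 3 apart. It stood at 34910 CPM in the macrophage-like cells of pig 3, against 524 and 176 CPM in those of pigs 1 and 2. In pig 3, 199 of 247 macrophage-like cells held a CXCL13 UMI and 173 held at least 10, with a median of 123 UMIs per cell, and the gene made up 3.49% of all UMIs of these cells. In pig 1, 6 of 70 macrophage-like cells held a UMI, and in pig 2, 5 of 67. All other cells of pig 3 together stood at 70.0 CPM, against 0.466 and 2.55 CPM in the other cells of pigs 1 and 2. The contrast was higher in macrophage-like cells in each pig. The log2 fold change over the 3 pigs was 9.54 ± 2.18 (SE, adjusted p = 0.0128), but the call was lost with robust shrinkage of the spread (adjusted p = 0.226), with a minimum of 500 UMIs per barcode (adjusted p = 0.103) and without pig 2 (log2 9.62, adjusted p = 0.0604). Pig 3 also supplied 247 of the 384 macrophage-like and 106 of the 149 lymphocyte-like cells, and the part of that in the CXCL13 level was not tested. CXCR5, its receptor, gave 17 UMIs in all pig cells kept.

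**Figure D2:**
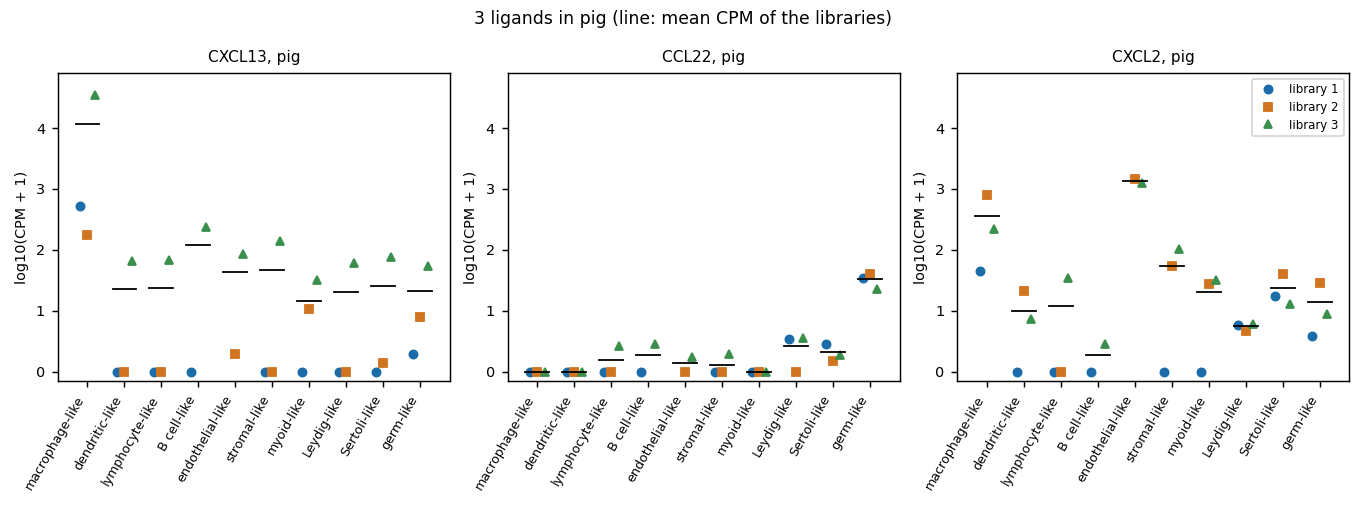
Level of CXCL13, CCL22 and CXCL2 in each pig library and cell class, as log10(CPM + 1), with 1 marker per library and a line at the mean CPM. CXCL13 of pig 3 lies far above the other markers in macrophage-like cells and above them in every other class, CCL22 stands up in germ-like cells alone in all 3 pigs, and CXCL2 is highest in endothelial-like cells.

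Lymphocyte-like cells had a narrower set in the main fit. In cattle, 10 of 35 members tested were higher and 6 were lower, where 8.47% of all genes tested were higher and 14.6% lower, and the members had a median log2 fold change of -0.83 against -0.39 for all genes. In pig, 4 of 40 were higher and 0 were lower, where 1.74% of all genes were higher and 0.296% lower, with medians of 0.31 and -0.50. At an unadjusted p under 0.05 in edgeR's test, 15 pig members passed in either direction, where 12.7% of all genes did. The pig count of members higher rose with no filter beyond 1 count and with a minimum of 500 UMIs per barcode. At that minimum the class held 35, 170 and 959 cells in pigs 1 to 3. The share of all genes called under these settings is not given. CCL5, a product of activated and cytotoxic T cells, led in both species. It stood at 7815, 8450 and 5311 CPM in cattle and at 1105, 2831 and 1407 CPM in pig lymphocyte-like cells, above each other class of the same library. The log2 fold changes were 7.02 ± 0.46 in cattle (SE, adjusted p = 3.95e-06) and 6.15 ± 0.62 in pig (SE, adjusted p = 7.99e-06). In cattle, 92.2% of lymphocyte-like cells held a CCL5 UMI at a median of 1524 UMIs per cell. Myoid-like cells, which should lack it, held one in 12.96% at a median of 1872.5 UMIs. CCL5 was also the leading member in the RNA outside cells. In cattle barcodes with at most 50 UMIs it stood at 651 CPM (exact Poisson 95% interval 625 to 679), above its mean of 247 ± 202 CPM in macrophage-like and 81.9 ± 42.0 CPM in myoid-like cells (SD, n = 3). These intervals cover counting error only. The pig files hold no such barcodes.

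XCL1, which attracts cross-presenting dendritic cells, stood at 47.8, 82.2 and 67.5 CPM in cattle lymphocyte-like cells (log2 6.95 ± 0.43, SE, adjusted p = 3.33e-06). In pig it was highest in dendritic-like cells, at 223, 61.7 and 948 CPM, and 586 of its 791 UMIs lay in a single cluster of 153 such cells. CCL1, a T cell product that acts through CCR8, stood at 78.2, 3.29 and 63.4 CPM in cattle lymphocyte-like cells, where 22 of 1999 cells held its 206 UMIs. CCL3 and CCL4 were higher in cattle lymphocyte-like cells too, by log2 4.12 ± 0.39 (SE, adjusted p = 4.46e-05) and 3.34 ± 0.52 (SE, adjusted p = 0.00108). In pig the further calls were CCR7, CXCR3 and CCL4, which rested on few cells, since pig 1 and pig 2 had 20 and 23 lymphocyte-like cells. Without pig 1 all 3 were lost, with adjusted p of 0.0586, 0.0887 and 0.145, and without pig 3 CCR7 and CXCR3 were lost, with adjusted p of 0.713 and 0.255. With the animal as a replicate block, 8 pig members were higher in lymphocyte-like cells, where 3.92% of all genes were higher.

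**Figure D3:**
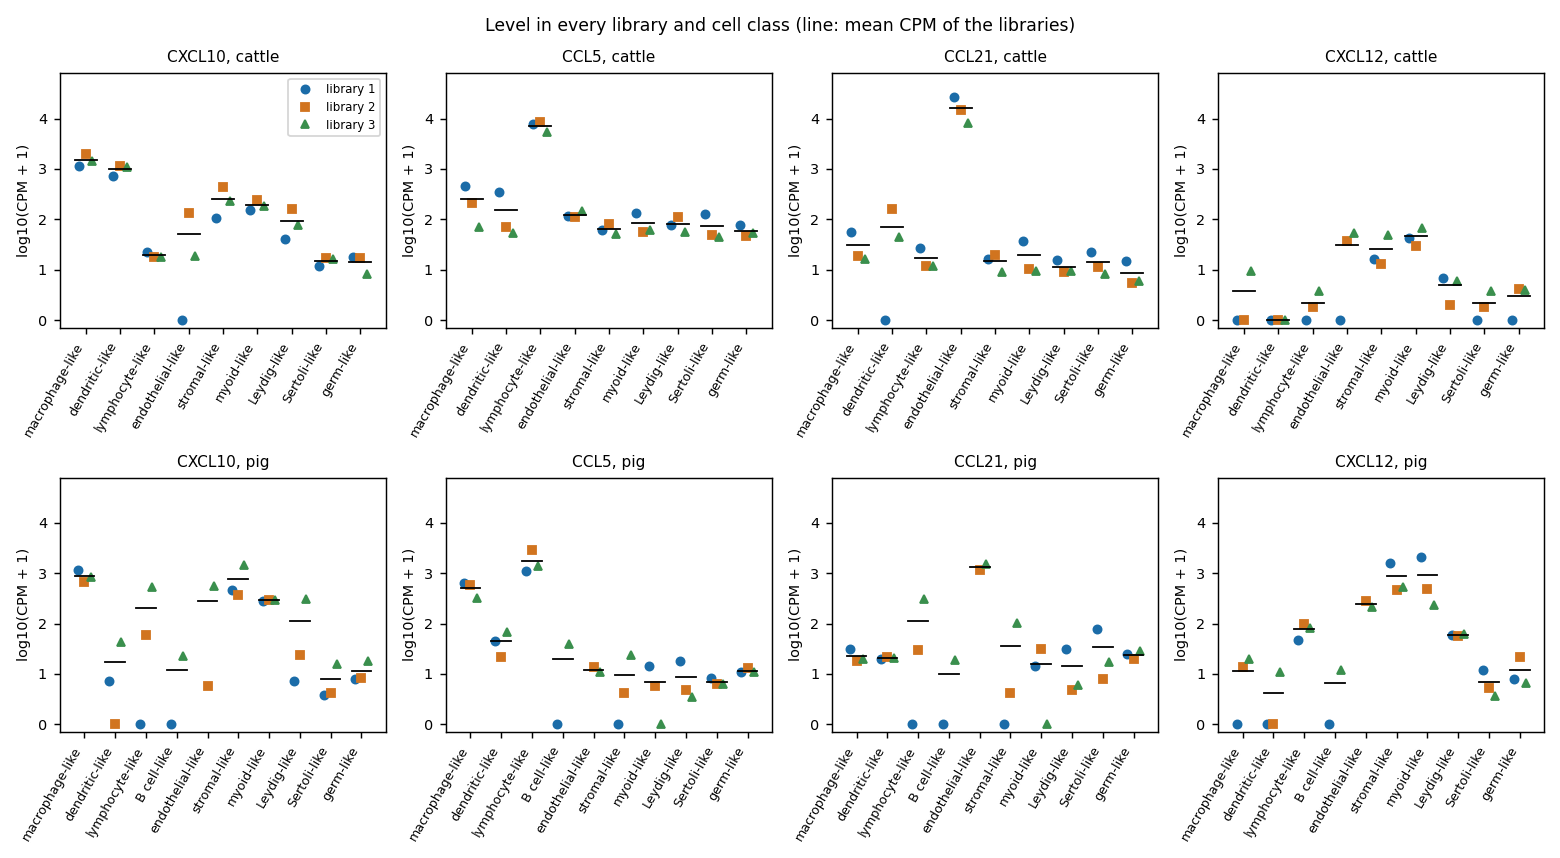
Level of CXCL10, CCL5, CCL21 and CXCL12 in each library and cell class, as log10(CPM + 1), for cattle above and pig below, with 1 marker per library and a line at the mean CPM. CXCL10 is highest in macrophage-like cells in both species, CCL5 in lymphocyte-like cells and CCL21 in endothelial-like cells, while CXCL12 lies highest in myoid-like cells and, in pig, as high in stromal-like cells.

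Set directly against lymphocyte-like cells, macrophage-like cells differed in most members. In cattle, 23 of 26 members tested differed, 17 higher in macrophage-like and 6 higher in lymphocyte-like cells, where 18.5% of all 9029 genes tested differed. In pig, 21 of 26 differed, 15 and 6 by direction, where 7.71% of 9362 genes differed. CCL2 was higher in macrophage-like cells by log2 7.50 ± 0.50 in cattle (SE, adjusted p = 1.23e-08) and 3.07 ± 0.60 in pig (SE, adjusted p = 1.6e-05). XCL1 was lower in macrophage-like cells. In cattle they held none of its UMIs and it was at least 23.6-fold lower, with 3 counts as the floor (adjusted p = 4.87e-06), and in pig the log2 fold change was -7.40 ± 0.96 (SE, adjusted p = 4.98e-12). The pig fit gave all genes the same spread at a given level, so its standard errors take little from the gene's own libraries. CXCL13 shows the effect, with an adjusted p of 4.74e-47 in that fit and of 0.355 with robust shrinkage. The pig count fell to 12 with DESeq2 and to 7 without pig 1, 15 without pig 2 and 11 without pig 3.

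**Figure D4:**
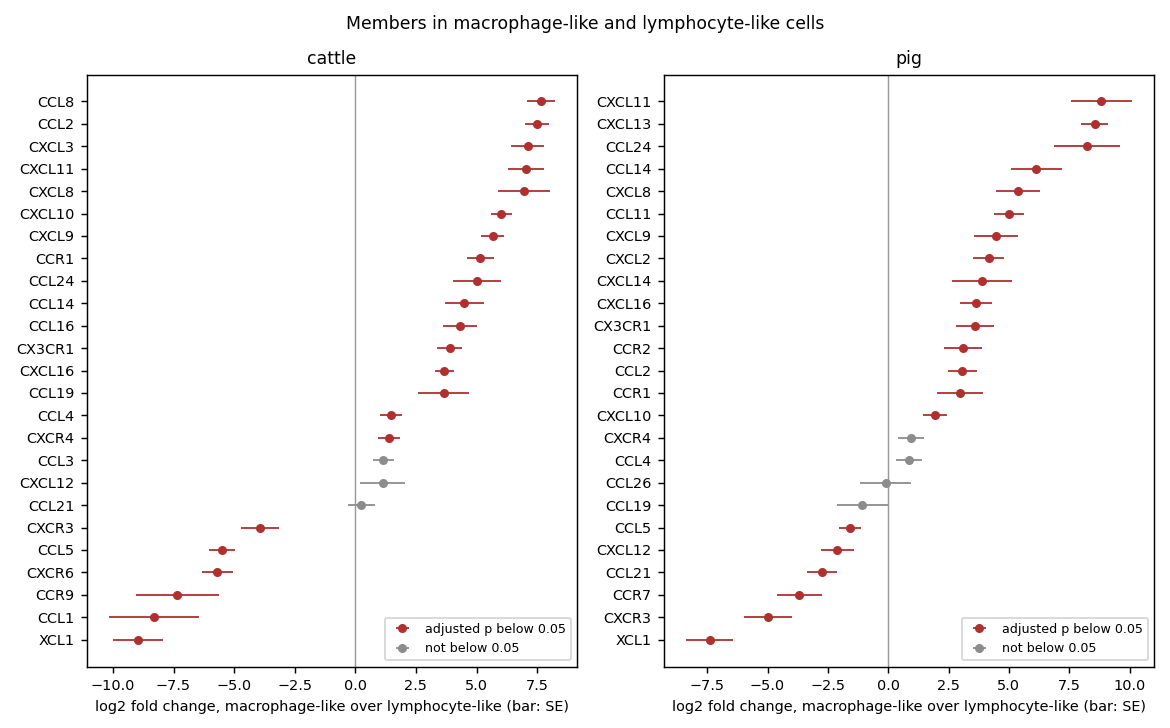
Log2 fold change of members tested, macrophage-like over lymphocyte-like cells, in cattle (left) and pig (right), with bars of 1 SE, red for an adjusted p below 0.05 and grey otherwise. The bar of CXCL13 in pig is short because the pig fit gave all genes a common spread, and CCL8, CCL2 and CXCL3 head the cattle panel while XCL1 is lowest in both, in cattle as a fitted value with no UMI in macrophage-like cells.

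Endothelial-like cells were marked by CCL21, the ligand of CCR7 that lymphatic vessels make to draw dendritic cells and T cells. In cattle it stood at 26330, 14530 and 8018 CPM in endothelial-like cells, and at 67.9 ± 82.4 CPM (SD, n = 3) in dendritic-like cells, the next class. The log2 fold change was 9.56 ± 0.62 (SE, adjusted p = 7.23e-06). In cattle, 108 of the 135 endothelial-like cells held a CCL21 UMI. In pigs 2 and 3 the gene stood at 1171 and 1539 CPM, with a log2 fold change of 6.04 ± 0.72 (SE, adjusted p = 0.011), and 73 of 689 cells held a UMI. A cluster of 27 pig cells led by CCL21 and MMRN1, a gene of lymphatic endothelium, held 6456 of the class's 6522 CCL21 UMIs, in 25 of its cells. The other pig endothelial-like clusters, of 364 and 298 cells, held 31 and 35 UMIs, or 15.1 and 13.7 CPM, no more than the 33.5 ± 38.1 CPM of Sertoli-like cells (SD, n = 3).

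CXCL2 in pig, CXCL3 in cattle and CCL14 in both species were also called higher in endothelial-like cells. CXCL2, a neutrophil attractant, stood at 1483 and 1257 CPM in endothelial-like cells of pigs 2 and 3 and was spread over both large clusters, with a log2 fold change of 5.11 ± 0.41 (SE, adjusted p = 0.00438). In macrophage-like cells it stood at 44.9, 807 and 216 CPM. Cattle gave 7 CXCL2 UMIs in all cells kept, and the endothelial-like contrast was not called different between species (pig minus cattle 8.57 ± 4.55 on the log2 scale, SE, adjusted p = 0.622). In cattle the related CXCL3 stood at 0, 188 and 160.4 CPM in endothelial-like cells (log2 5.48 ± 0.55, SE, adjusted p = 0.000168), a symbol that the pig gene table does not hold. CCL14 was higher in endothelial-like cells of both species, at 177, 333 and 200.4 CPM in cattle (log2 7.23 ± 0.48, SE, adjusted p = 7.4e-06) and 81.3 and 97.4 CPM in pigs 2 and 3 (log2 4.99 ± 0.40, SE, adjusted p = 0.00438). The highest pig mean of CCL14 was in macrophage-like cells, at 131 ± 93.5 CPM (SD, n = 3). In cattle, 4 of 35 members tested were higher and 1 was lower, where 2.19% of all genes were higher and 2.48% lower, with medians of -2.61 and -0.91. These cattle medians depended on the fit, and with DESeq2 they were 0.21 for members and 0.09 for all genes. In pig, 5 of 40 were higher and 2 were lower, where 4.79% of all genes were higher and 1.95% lower, with medians of -1.98 and -0.31. The remaining pig calls were CCL24, at 12.2 and 57.7 CPM, and CXCL12. CCL24 also averaged more in pig macrophage-like cells, at 133 ± 148 CPM (SD, n = 3). With no filter beyond 1 count 3 of the 5 pig calls passed, with CCL21 and CCL24 lost. With a minimum of 500 UMIs per barcode, CXCL12 fell from a log2 fold change of 2.57 to 0.95 and was lost (adjusted p = 0.367), as was CCL24 (adjusted p = 0.0679), which was also lost with no doublets left out (adjusted p = 0.0764). With the animal as a replicate block 8 pig members were higher, where 13.6% of all genes were higher.

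CXCL12 was higher in the myoid-like cells of both species and in pig stromal-like cells, and CXCL14 in cattle myoid-like and pig stromal-like cells. In cattle stromal-like cells neither was called, with log2 fold changes of 0.84 for CXCL12 and -1.35 for CXCL14. The split of cattle myoid-like from stromal-like cells depended on the clustering. Cattle 2 had 2459 myoid-like and 1312 stromal-like cells, but 1366 and 2390 at resolution 2. In cattle 1 and 3 the numbers moved less. The pig split was unstable too. Pig 1 had 82 myoid-like and 10 stromal-like cells, but 10 and 78 with no doublets left out. Pig 3 had 12 and 237, but 84 and 147 with no doublets left out. CXCL12 stood at 2062, 477 and 229.5 CPM in pig myoid-like cells and at 1632, 469 and 523 CPM in pig stromal-like cells. In cattle it stood at 41.0, 28.1 and 67.0 CPM in myoid-like cells and at 15.1, 11.8 and 48.7 CPM in stromal-like cells, while cattle barcodes with at most 50 UMIs stood at 15.2 CPM. In cattle macrophage-like cells it averaged 2.77 ± 4.79 CPM (SD, n = 3). CXCL14, an epithelial and stromal ligand, stood at 42.1, 78.5 and 17.0 CPM in cattle myoid-like cells. In pig it was highest in stromal-like cells, at 0, 50.7 and 29.2 CPM, where pig 1 had 10 cells. CCL19, which shares CCR7 with CCL21, stood at 0, 41.2 and 133.9 CPM in pig stromal-like cells, with a log2 fold change of 5.79 ± 0.69 (SE, adjusted p = 6.91e-05). CXCL10 reached 466, 377 and 1482 CPM in pig stromal-like cells, overlapping the range of the macrophage-like cells.

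By count, 0 of 35 cattle members were higher in stromal-like cells and 9 were lower, where 2.63% of all genes were higher and 7.19% lower. At an unadjusted p under 0.05, 17 members passed in either direction in this edgeR fit, where 26.4% of all genes did, and with the animal as a replicate block 3 members were higher, where 13.6% of all genes were. In cattle myoid-like cells 4 were higher and 16 lower, where 9.48% of all genes were higher and 13.9% lower. They were CXCL14 (log2 3.95 ± 0.70, SE, adjusted p = 0.00537), CXCL12 (3.16 ± 0.56, SE, adjusted p = 0.00535), CCL16 and CXCL10. Without cattle 2, CXCL14 alone passed, and CXCL12 had an adjusted p of 0.0578. In pig, 6 of 40 were higher in stromal-like cells and 1 was lower, where 3.4% of all genes were higher and 1.87% lower. Beside CCL19 they were CXCL14 (log2 3.46 ± 0.56, SE, adjusted p = 0.000832), CXCL12 (3.10 ± 0.51, SE, adjusted p = 0.000899), CXCL10, CCL26 and CCL2. CXCL10, CCL26 and CCL2 were lost without pig 1, with adjusted p of 0.199, 0.209 and 0.0695, and CXCL12 without pig 3 with 0.0636. In pig myoid-like cells 1 was higher and 1 lower, where 1.17% of all genes were higher and 0.697% lower, and the higher one was CXCL12 (log2 4.09 ± 0.73, SE, adjusted p = 0.0162). It was lost without pig 1 (log2 2.40, adjusted p = 0.0614), without pig 2 (log2 4.50, adjusted p = 0.54) and with robust shrinkage (adjusted p = 0.0618), while with the animal as a replicate block 3 pig members were higher, where 3.38% of all genes were higher. With both classes joined, a comparison chosen after the data were seen, the sum of stromal-like and myoid-like cells was higher in CXCL12 in cattle (log2 3.96 ± 0.48, SE, adjusted p = 0.000897) and in pig (4.74 ± 0.64, SE, adjusted p = 0.00282). In that comparison 4 cattle members and 3 pig members were higher, where 13.8% and 3.07% of all genes were higher.

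Leydig-like, Sertoli-like and germ-like cells, the steroid-making, nurse and germ cells of the testis, had few members called higher. In cattle 0 of 35 members were higher in each of these 3 classes, where 5.88%, 13.6% and 23.1% of all genes were higher in them. In cattle, 9, 26 and 27 members were lower, where 8.73%, 19.3% and 26.7% of all genes were lower, and 14, 29 and 28 members had an unadjusted p under 0.05 in edgeR's test, as did 29.4%, 44.4% and 56.1% of all genes. In pig, 0 of 40 members were higher in Leydig-like cells, where 4.57% of all genes were higher, and 3 were lower, where 3.18% of all genes were lower. At an unadjusted p under 0.05 in edgeR's test 12 members passed there, where 24.9% of all genes did. In pig Sertoli-like cells 1 was higher and 17 lower, where 9.88% of all genes were higher and 14.8% lower. The higher one was CCL2 (log2 1.81 ± 0.50, SE, adjusted p = 0.0281), and without pig 2 or without pig 3 no member was called higher there. With the animal as a replicate block 1 cattle and 1 pig member were higher in Leydig-like cells, where 13.4% and 9.94% of all genes were higher, and 2 and 2 in Sertoli-like cells, where 25.3% and 16.9% were higher. In pig germ-like cells 3 were higher and 21 lower, where 15.9% of all genes were higher and 17.5% lower.

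The germ-like exception was CCL22, a ligand of CCR4 usually made by dendritic cells and macrophages. It stood at 34.0, 39.9 and 22.0 CPM in the germ-like cells of pigs 1 to 3, above every other class in every pig, where the next highest mean was 1.68 ± 1.46 CPM (SD, n = 3) in Leydig-like cells. The log2 fold change was 4.82 ± 0.58 (SE, adjusted p = 0.0034), and it passed without each pig in turn. Of its 525 UMIs, 506 lay in germ-like cells, in all 6 germ-like clusters with 9 to 179 UMIs each. In 340 of 1889 germ-like cells at least 1 UMI was found at a median of 5430 UMIs per cell, against 7 of 3647 Sertoli-like cells (0.192%) at a median of 3400. Pig macrophage-like cells held no CCL22 UMI. Cattle gave 12 CCL22 UMIs in all, and in cattle germ-like cells no member was higher. The other 2 pig calls, CCL17 and CCR4, had 15 and 39 UMIs, and were lost without pig 1 (adjusted p = 0.0822 and 0.0641) and without pig 2 (adjusted p = 0.0922 and 0.0999). CCL17 is a close relative of CCL22 with its gene nearby on chromosome 6, and it overlaps CIAPIN1 on the opposite strand. CXCL9 was seen at a low level in pig germ-like cells, at 16.03, 11.7 and 12.6 CPM.

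Receptors gave far fewer UMIs than ligands, and their summed levels were highest in macrophage-like, dendritic-like and lymphocyte-like cells. Summed over all receptors, levels averaged 431 ± 163 CPM in cattle macrophage-like, 219 ± 31.2 CPM in cattle lymphocyte-like and 193 ± 40.2 CPM in cattle dendritic-like cells (SD, n = 3). In the other cattle classes the means lay between 6.18 and 18.9 CPM. In pig they averaged 457 ± 242 CPM in dendritic-like, 433 ± 222 CPM in macrophage-like and 264 ± 32.1 CPM in lymphocyte-like cells (SD, n = 3), and 123 ± 90.5 CPM in endothelial-like cells (SD, n = 2). Pig B cell-like cells averaged 103 ± 102 CPM (SD, n = 2). In the remaining pig classes the means lay between 8.03 CPM in Leydig-like and 29.6 CPM in germ-like cells. These are levels, and the share of receptor UMIs by class is not given.

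CX3CR1, the fractalkine receptor of resident macrophages, stood at 56.0, 65.5 and 109 CPM in cattle and at 14.96, 184 and 81.8 CPM in pig macrophage-like cells. Its log2 fold changes were 7.35 ± 0.58 in cattle (SE, adjusted p = 9.43e-06) and 6.94 ± 0.75 in pig (SE, adjusted p = 5.84e-05). CCR1 stood at 18.7, 100.4 and 133 CPM in cattle and at 14.96, 20.9 and 37.5 CPM in pig. Its log2 fold changes were 7.24 ± 0.55 (SE, adjusted p = 7.07e-06) and 5.35 ± 0.67 (SE, adjusted p = 0.000148). The lowest of these values rest on 1 UMI each, for both genes in pig 1 and for CCR1 in cattle 1, while Sertoli-like cells averaged 0.125 and 0.306 CPM of CX3CR1 and 0.774 and 0.0331 CPM of CCR1 in cattle and pig. CCR2, the monocyte receptor for CCL2, gave 256 UMIs in pig, at 29.9, 117 and 63.4 CPM in macrophage-like cells, and no UMI in the cattle cells kept. Pig dendritic-like cells stood as high in CCR2, at 72.8 ± 46.5 CPM (SD, n = 3).

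CXCR6, CXCR3 and CCR9 averaged highest in lymphocyte-like cells in cattle, and CXCR3 and CCR7 did so in pig. In cattle, CXCR6 stood at 73.9, 92.1 and 93.0 CPM in lymphocyte-like cells (log2 6.69 ± 0.36, SE, adjusted p = 2.86e-06), while pig gave 4 CXCR6 UMIs in all cells kept. The pig gene overlaps FYCO1. CXCR3, the receptor of CXCL9, CXCL10 and CXCL11 on activated T cells, stood at 39.1, 27.1 and 54.4 CPM in cattle and at 184, 19.6 and 51.3 CPM in pig lymphocyte-like cells. In dendritic-like cells it averaged 33.4 CPM in cattle and 35.8 CPM in pig. Lymphocyte-like cells held 81.6% of its cattle UMIs and 20.7% of its pig UMIs. CCR9, a gut-homing receptor, stood at 8.69, 41.9 and 9.64 CPM in cattle lymphocyte-like cells and gave 11 UMIs in pig. CCR7, a receptor of naive T cells, stood at 46.0, 9.80 and 56.2 CPM in pig lymphocyte-like cells, which held 31.6% of its 114 pig UMIs. The lymphocyte-like cells of pigs 1 and 2 held only 21716 and 102068 UMIs of all genes. Their CXCR3 and CCR7 values therefore rest on very few molecules. CXCR4, the receptor of CXCL12, stood at 93.3, 188 and 221 CPM in cattle and at 119.7, 318 and 123 CPM in pig macrophage-like cells. The highest pig mean of CXCR4 was in dendritic-like cells, at 272 ± 215 CPM (SD, n = 3). Beyond the leukocytes, CXCR4 stood at 184 and 56.2 CPM in endothelial-like cells of pigs 2 and 3.

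Of 31 known ligand and receptor pairs, both genes were in the table for 28 in cattle and 24 in pig, and both had at least 50 UMIs for 11 in each. The class with the highest mean level was the same for ligand and receptor in 2 of the 11 pairs in cattle and in 2 of the 11 in pig. Among these pig pairs was XCL1 with XCR1, both highest in the weakly named dendritic-like cells. That class held 9.09% of the 55 XCR1 UMIs, at 4.29 ± 3.71 CPM (SD, n = 3), so this match rests on few molecules. For CXCL12 and CXCR4 in cattle, these classes were myoid-like for the ligand and macrophage-like for the receptor.

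Whether a class stood out by the same amount in both species was tested as the interaction of species and class. For macrophage-like cells, 4 of 41 members tested differed, where 0.767% of all 12770 genes differed. For lymphocyte-like cells 1 differed, where 1.73% of all genes differed, for endothelial-like cells 1, where 1.05% of all 12723 genes differed, and for stromal-like cells 2, where 0.955% differed. In the fit with a replicate block for the animal, the counts were 13, 11, 2 and 6, where 3.92%, 11.9%, 4.09% and 9.83% of all genes differed. CCL5 had the smallest adjusted p, with a log2 fold change in macrophage-like cells of -1.64 in cattle and 4.13 in pig, a difference of 5.55 ± 0.71 (SE, adjusted p = 0.000288). In levels, pig macrophage-like cells stood at 628, 581 and 318 CPM, and cattle ones at 466.5, 205 and 69.2 CPM. Cattle held 1999 lymphocyte-like cells and pig 149, and since lymphocyte-like cells are part of all other cells, their share moves this contrast. Its part in the difference was not tested. CCL21 in endothelial-like cells differed by -3.67 ± 0.76 (SE, adjusted p = 0.027). Pig endothelial-like cells were mostly of the clusters low in CCL21, and the part of that in the difference was not tested. CCL19 and CXCL14 in stromal-like cells stood out more in pig, by 4.49 ± 1.0 (SE, adjusted p = 0.0295) and 4.65 ± 0.94 (SE, adjusted p = 0.0151).

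**Figure D5:**
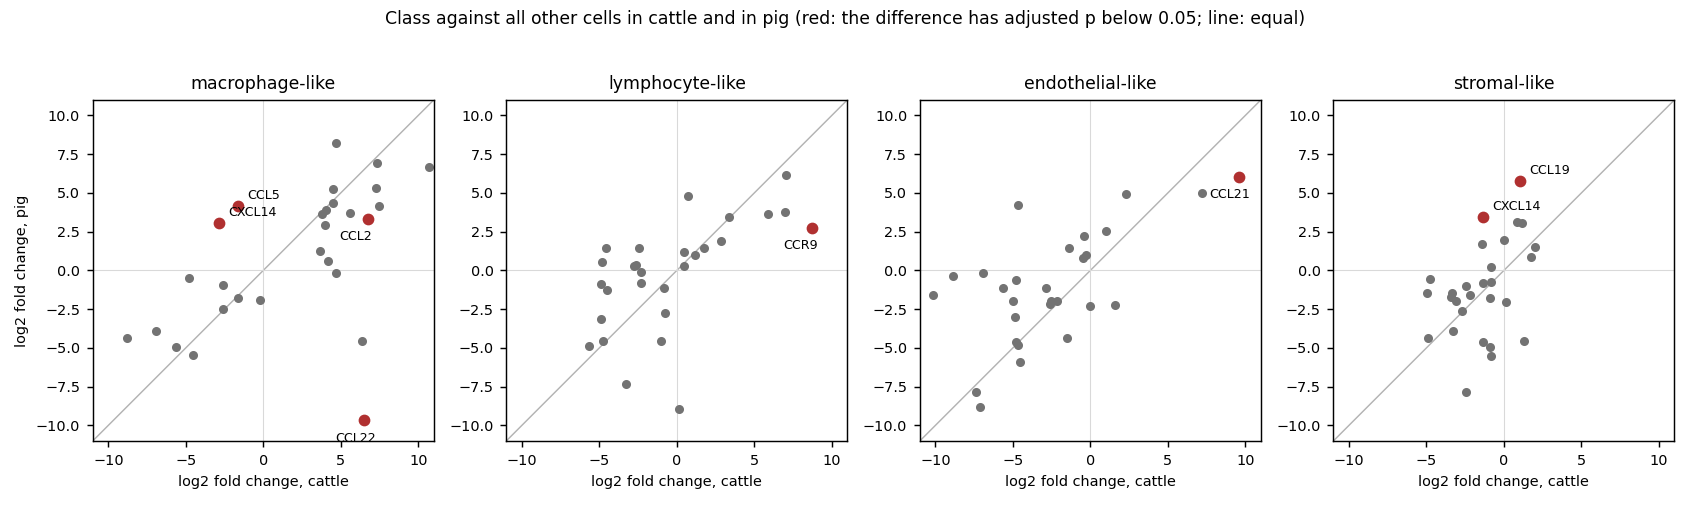
Log2 fold change of members in a class against all other cells, for cattle on the horizontal and pig on the vertical axis, in 4 classes, with the line of equal values and red points for members whose difference between species had an adjusted p below 0.05. The red points in the macrophage-like panel are CCL5, CXCL14, CCL2 and CCL22, of which cattle CCL22 rests on 6 UMIs, and grey points such as CCL17, CCL19 and CXCL8 lie further off the line than CCL2.

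Other genes of the pathway and of inflammation were followed in 2 lists without members. Of 31 pathway genes, which transmit or limit receptor signals, 24 were tested in cattle and 30 in pig, and 11 were higher in macrophage-like cells in each species, with 1 and 0 lower. Their median log2 fold changes were 1.68 in cattle and 1.53 in pig, against -0.69 and -0.62 over all genes, of which 6.62% and 6.04% were higher. CCRL2, a non-signalling chemokine-binding receptor, was higher by log2 4.89 ± 0.50 in cattle (SE, adjusted p = 5.51e-05) and 5.48 ± 0.67 in pig (SE, adjusted p = 0.000135). RGS1, which dampens chemokine receptor signals, was higher by 5.56 ± 0.44 (SE, adjusted p = 9.43e-06) and 3.78 ± 0.59 (SE, adjusted p = 0.000885). In lymphocyte-like cells 9 pathway genes were higher and 1 lower in cattle, and 3 were higher and 0 lower in pig, where 8.47% and 1.74% of all genes were higher. Their medians were 0.59 and 0.62 against -0.39 and -0.50 over all genes, and among the higher ones were RAC2 and DOCK2, which drive leukocyte motility, in both. In endothelial-like cells 2 pathway genes were higher and 3 lower in cattle, and 6 were higher and 1 lower in pig. Of all genes, 2.19% were higher and 2.48% lower there in cattle, and 4.79% and 1.95% in pig. RGS10 was lower in both species and GNAI1 in cattle. GPR182, a scavenging chemokine receptor of endothelium, was higher in endothelial-like cells by 5.69 ± 0.63 in cattle (SE, adjusted p = 0.000303) and 5.71 ± 0.72 in pig (SE, adjusted p = 0.0128). ACKR2, a scavenger of CC ligands, was higher there in cattle by 7.77 ± 0.78 (SE, adjusted p = 0.000155). Its contrast differed between species in edgeR's interaction test (pig minus cattle -7.07 ± 1.23, SE, adjusted p = 0.00795). Of 19 inflammatory genes, 17 were tested in each species and 11 were higher in macrophage-like cells in each, with 1 lower in cattle and 0 in pig and medians of 2.18 and 2.43. IFNG, the interferon that induces CXCL9 to CXCL11, was higher in lymphocyte-like cells by 7.04 ± 0.41 in cattle (SE, adjusted p = 2.86e-06) and 6.73 ± 0.70 in pig (SE, adjusted p = 8.95e-06).

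The 250 bases before the annotated start of each pig member were searched on both strands for letters that resemble sites of inflammatory factors. The letters GGGA and TTCC with 2 bases between, a form bound by NF-kappaB, were in 4 of 44 members (9.09%) and in 2.36% of 19559 protein-coding genes. GAAA and GAAA with 2 bases between, a form bound by interferon regulatory factors, were in 4 of 44 (9.09%) against 3.01%, and TTC and GAA with 3 bases between, a form bound by STAT factors, in 6 of 44 (13.6%) against 6.12%. Each count is small, and a match in letters is not a site. The windows of CXCL10, which holds 1 match to each of the first and second motifs, and of CXCL2, which holds 2 overlapping matches to the first, are shown as they read towards the gene, with the matches in capitals. The CXCL10 window is chr8:71695949-71696198 on the minus strand and the CXCL2 window is chr8:70157003-70157252 on the plus strand of Sscrofa11.1.
CXCL10: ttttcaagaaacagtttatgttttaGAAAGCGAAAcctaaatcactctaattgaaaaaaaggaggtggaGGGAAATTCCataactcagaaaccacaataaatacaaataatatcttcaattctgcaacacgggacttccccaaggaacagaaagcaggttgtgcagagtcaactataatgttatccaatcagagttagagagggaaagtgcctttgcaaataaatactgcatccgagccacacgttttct
CXCL2: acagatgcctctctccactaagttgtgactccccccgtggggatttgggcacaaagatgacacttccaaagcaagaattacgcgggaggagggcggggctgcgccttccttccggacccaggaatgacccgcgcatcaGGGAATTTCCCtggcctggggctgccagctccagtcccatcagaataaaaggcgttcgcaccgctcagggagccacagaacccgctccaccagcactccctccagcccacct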

How the data were processed

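UMI counts per gene and droplet were used as deposited. The authors made these counts with Cell Ranger, for which version 2.1.0 is named in the submitters' processing notes and 3.0.2 in the pig file headers. Pig coordinates are on Sscrofa11.1. Cells were called by the rule of Cell Ranger 2 (the percentile 99 of the top 3000 expected barcodes, divided by 10) and kept with at least 200 genes. Scrublet scores removed 41 to 613 barcodes per library as doublets.

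Cells were clustered by the Leiden method in scanpy 1.11.5 at resolution 1, without members and mitochondrial genes, and clusters were named from markers, by a rule whose thresholds were set after clusters were seen. UMIs were summed per class and library and tested with edgeR 4.0.16 (R 4.3.3, TMM, quasi-likelihood, at least 10 counts and 10 cells per sum), with Benjamini-Hochberg adjustment over all genes and a threshold of 0.05. Pig 1 had too few endothelial-like cells and was left out there. The tests were checked on simulated counts.

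A class and the other cells it was compared with were captured in 1 library per animal, so they are paired by design. Their deviations correlated at 0.054 to 0.469, and the fit with the animal as a block was run as an alternative. Other alternatives were DESeq2 1.42.0, no TMM, no count filter, 500 UMIs per barcode, resolution 2, no doublet removal, each library left out and, added after the data were seen, robust shrinkage and joined stromal-like and myoid-like cells.

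Each member with at least 50 UMIs could be named, with at most 10 called members per comparison by size of change. Cattle CCL11 and CXCL2 and pig CXCR5 and CXCR6, with fewer UMIs, were named after their values were seen. The members, gene lists and tests were chosen with earlier results of these data known. The labels number the testes 1, 2 and 2 in each species. The p-values measure the spread between these libraries, drawn in part from other genes. Total UMIs in cells kept ran from 3342000 to 32956134 per cattle library and from 4357202 to 20732293 per pig library. Cattle sequences were not used here. One member is counted but not reported here by name.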

Additional observations from a re-analysis of the deposited data

Results flagged for a closer look

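The contrast of a class with all other cells differed between cattle and pig for 8 member and class pairs, by the species and class interaction in edgeR. Values are pig minus cattle on the log2 scale. In macrophage-like cells CCL2 differed by -3.68 ± 0.72 (SE, adjusted p = 0.0144), from 6.76 in cattle and 3.33 in pig, and it was lost without cattle 1, 2 or 3 (adjusted p = 0.055, 0.0669 and 0.121) and without pig 2 (adjusted p = 0.0676). CCL22 differed by -15.86 ± 3.14 (SE, adjusted p = 0.0185), but 6 cattle UMIs of 1 cell and no pig macrophage-like UMI stand behind it, so the fitted size is no estimate of a fold, and it was lost with robust shrinkage (adjusted p = 0.0696), at 500 UMIs per barcode (adjusted p = 0.0532), without cattle 1 (-6.05, adjusted p = 0.9998) and without pig 3 (adjusted p = 0.0654). CCL5 differed by 5.55 ± 0.71 (SE, adjusted p = 0.000288) and was lost at 500 UMIs per barcode (adjusted p = 0.221). CXCL14 differed by 5.61 ± 1.32 (SE, adjusted p = 0.0474) and was lost under 9 alternatives.

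In lymphocyte-like cells CCR9 differed by -6.35 ± 1.59 (SE, adjusted p = 0.0444) and was lost under 10 alternatives. In endothelial-like cells CCL21 differed by -3.67 ± 0.76 (SE, adjusted p = 0.027) and was lost at 500 UMIs per barcode, without cattle 2 (adjusted p = 0.17) and without cattle 3 (adjusted p = 0.124). In stromal-like cells CCL19 differed by 4.49 ± 1.0 (SE, adjusted p = 0.0295) and was lost at 500 UMIs per barcode, without cattle 1, 2 or 3 (adjusted p = 0.0809, 0.152 and 0.0877) and without pig 3 (adjusted p = 0.171). CXCL14 differed there by 4.65 ± 0.94 (SE, adjusted p = 0.0151) and was lost at resolution 2, without pig 2 (adjusted p = 0.0724) and without pig 3 (adjusted p = 0.0622). What lies behind these differences was not tested.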

How the results depend on the processing

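Of 249 recomputed counts of members, 177 stayed within 1.5 times of the main count, and of 1643 recomputed named members 249 lost their call and none changed direction. In the paired fit, with a replicate block for the animal, members higher numbered 3 for cattle stromal-like, 1 for cattle Leydig-like, 2 for cattle Sertoli-like, 8 for pig lymphocyte-like, 8 for pig endothelial-like, 3 for pig myoid-like, 1 for pig Leydig-like and 2 for pig Sertoli-like cells, and members that differed between species numbered 13, 11, 2 and 6 for macrophage-like, lymphocyte-like, endothelial-like and stromal-like cells. DESeq2 gave 8 for pig endothelial-like, 2 for pig myoid-like, 12 for pig macrophage-like against lymphocyte-like, and 4 and 4 between species for endothelial-like and stromal-like cells. Without TMM the counts were 2 for cattle myoid-like, 1 for cattle germ-like, 0 for pig Sertoli-like and 2 between species for endothelial-like cells. Without a filter beyond 1 count they were 1 for cattle germ-like, 9 for pig lymphocyte-like and 3 for pig endothelial-like cells. With 500 UMIs per barcode they were 13 for pig lymphocyte-like, 2 for pig myoid-like, 0 for pig Sertoli-like and 1 for pig germ-like cells, and between species 2 for macrophage-like, 0 for lymphocyte-like and 0 for endothelial-like cells. At resolution 2 they were 0 for pig myoid-like cells, and 0 and 1 between species for lymphocyte-like and stromal-like cells. With no doublets left out they were 3 for pig stromal-like and 2 for pig myoid-like cells. With stromal-like and myoid-like cells joined they were 4 in cattle and 3 in pig. Robust shrinkage gave 0 for pig myoid-like cells and 2 between species for macrophage-like cells. Outside the block and joined fits, the share of all genes called is not given, nor is it with a library left out. Those counts therefore show how the calls moved and are no result about the members. The cause of these moves was not tested.

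With each library left out in turn, counts in cattle ran from 0 to 1 for stromal-like, 1 to 5 for myoid-like and 0 to 1 for Leydig-like cells. In pig they ran from 1 to 5 for lymphocyte-like, 3 to 5 for stromal-like, 0 to 2 for myoid-like, 0 to 2 for Sertoli-like, 1 to 1 for germ-like and 7 to 15 for macrophage-like against lymphocyte-like cells. Between species they ran from 1 to 4 for macrophage-like, 0 to 1 for lymphocyte-like, 0 to 1 for endothelial-like and 0 to 2 for stromal-like cells. Leaving out a library was not run for pig endothelial-like cells, which had 2. At resolution 2 the pig macrophage-like class held 0, 5 and 180 cells in pigs 1 to 3. No comparison with pig macrophage-like cells could be run there. Receptors held 2090 cattle and 2907 pig UMIs, and pigs 1 and 2 had 20 and 23 lymphocyte-like cells. The part of depth in these counts was not tested.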
